A study of Mus musculus with 11 samples.

Results

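Endothelial cells line blood and lymphatic vessels, and the genes followed here were 40 listed markers of these cells and factors that steer vessel growth, matched to the tables by gene symbol. Of the 40, 39 were found among the 15453 genes measured, and Prox1, the transcription factor that specifies lymphatic endothelium, was not found by its symbol. In 36 of them the mean of WT or pKO mice was 50 normalized tags or more, as in 9906 of all genes, and Icam2, Emcn and Erg were under this minimum in both genotypes. The tissue was epididymal white fat (eWAT), taken at 16 weeks of age from male C57BL/6J mice, a strain the labels give as C57BL/6. Both groups had eaten a high fat diet from 8 weeks of age. One group held 6 wildtype (WT) mice and the other 5 littermates that had received an inactivated Mest allele from the father (Mest+/-, paternal knockout, pKO). Mest is an imprinted gene expressed from the paternal allele, and exon 3 was deleted in every cell by germline EIIa-cre recombination, so the deletion was not limited to fat cells or vessels. RNA came from whole eWAT, in which fewer endothelial cells and less RNA per endothelial cell cannot be told apart. Fat mass of these mice is not analysed here, and its part cannot be told apart from that of the genotype.

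VEGF ligands act through the receptor tyrosine kinases KDR, FLT1 and FLT4, with NRP1 as a co-receptor, and VEGFA acting on KDR is the main signal for new capillaries. DLL4 on the leading cell of a sprout activates Notch in its neighbours and holds back their sprouting, whereas angiopoietins act on the receptor TEK to settle or loosen vessels. Fat is densely supplied with capillaries, which grow as adipocytes enlarge.

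Expression was measured by SAGE (serial analysis of gene expression). In this method the enzyme NlaIII cuts cDNA at CATG and a short tag beside the cut nearest the poly(A) tail is sequenced. Each transcript gives 1 tag, so levels need no scaling by gene length. A value is the number of tags of a gene divided by the size factor of its library, called normalized tags below, and 1 tag was worth 0.836 to 1.19. WT libraries held 9659740 to 14825727 tags and pKO libraries 11320342 to 14626803. The tags of the genes on which the results turn, read from GENCODE M21 transcripts of mouse build GRCm38, are shown 5′ to 3′ with the NlaIII site in capitals. They mark the stretch of each transcript that was counted, which lay in the 3′ UTR of the last exon unless stated.
Kdr, chr5:75932980-75933005, minus strand: CATGgaatatgcagctatatacccta
Dll4, chr2:119335899-119335924, plus strand: CATGgggctattttcccctgccttga
Pdpn, chr4:143267680-143267705, minus strand: CATGttggctttagtataggaagtca
Pdpn short transcript, coding sequence, chr4:143273962-143273987, minus strand: CATGatcacagagaacacgagagtac
Vegfb, chr19:6982635-6982660, minus strand: CATGtctcacctcaggggccagggta
Pecam1, chr11:106654486-106654511, minus strand: CATGccgaaggcccaaagaagagaaa
Cdh5, chr8:104144449-104144474, plus strand: CATGagatgtactgtaccttttttta
Flt1 full-length receptor, chr5:147561636-147561661, minus strand: CATGatgaatgtatttcacatattat
Flt1 short transcript, chr5:147635665-147635690, minus strand: CATGgaatccgggccacagcatcact
All 40 genes had at least 1 NlaIII site. In 24 of them every annotated transcript led to the same tag, as for Kdr, Dll4, Cdh5 and Vegfb, and in 16 the transcripts led to 2 or more tags. A tag cut short by the end of its transcript was counted as separate, as for Nos3, whose 2 tags share a site. The site lay 12 bases from the 3′ end in the Esam transcript and 14 bases in 1 of the 2 Emcn transcripts. Whether such short tags were mapped is not given in the sources used here. The pair of Flt1 tags separates the membrane receptor from the short form that ends after an earlier exon, but the deposited table gave a single value for the gene, and which tags it summed is not given in the sources used here.

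The targeted gene was low in every pKO mouse. Mest lay between 20756 and 27897 normalized tags in WT mice and between 793 and 2275 in pKO mice (log2 fold change -3.99, adjusted p = 1.2e-06, limma), although its tag lies in the last exon and not in the deleted one, so that transcripts lacking exon 3 would still be counted. The libraries of pKO replicates 3, 4 and 5 lay at one end of the first principal component, which held 24.0% of the variance. Among the 9906 genes with the minimum mean they had the highest coefficients, at 0.31, 0.25 and 0.64. WT replicate 6 followed at 0.17, and the other 7 mice were negative. The lowest were pKO replicates 1 (-0.51) and 2 (-0.25), so the pKO mice lay at both ends. A fit without replicates 3, 4 and 5 therefore compares WT mice with the pKO mice at the opposite end. Replicates 3, 4 and 5 of the pKO mice were below all 8 others in 386 of the 9906 genes (3.90%) and above all 8 in 505 (5.10%). Among the 36 endothelial genes they were below in 2 (5.56%), Ramp2 and Vegfb, and above in 3 (8.33%), Robo4, Lyve1 and Angpt2. Endothelial results that rest on them are given with and without them. No scan or library date is given in the labels.

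Most endothelial genes showed no difference between genotypes larger than the spread between mice. At an unadjusted p of at most 0.05, 1 of the 36 genes was lower in pKO mice (Vegfb) and 3 were higher (Kdr, Dll4 and Pdpn), together 11.1%, against 10.6% of all genes with this mean (5.77% lower and 4.85% higher). The share is near the background and is not a result about endothelial genes as a group. With no minimum mean Erg was added as lower, which made 5 of 39 genes or 12.8%, against 9.55% of all 15453 genes (5.35% lower). None had an adjusted p of at most 0.1 in limma (lowest 0.28, for Pdpn), against 0.0505% of all genes, whereas DESeq2 on the recovered tags called 1, Pdpn, and 1.22% of all genes. The median log2 fold change, pKO minus WT, was 0.083 over the 36 genes and 0.0086 over all 9906, with 24 of the 36 above 0. In none of the 36 were the WT and pKO ranges apart, against 1.43% of all genes. The median 95% confidence interval reached 0.40 to either side of the log2 fold change, and 29 of the 36 intervals lay within a 2-fold change either way.

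**Figure D1:**
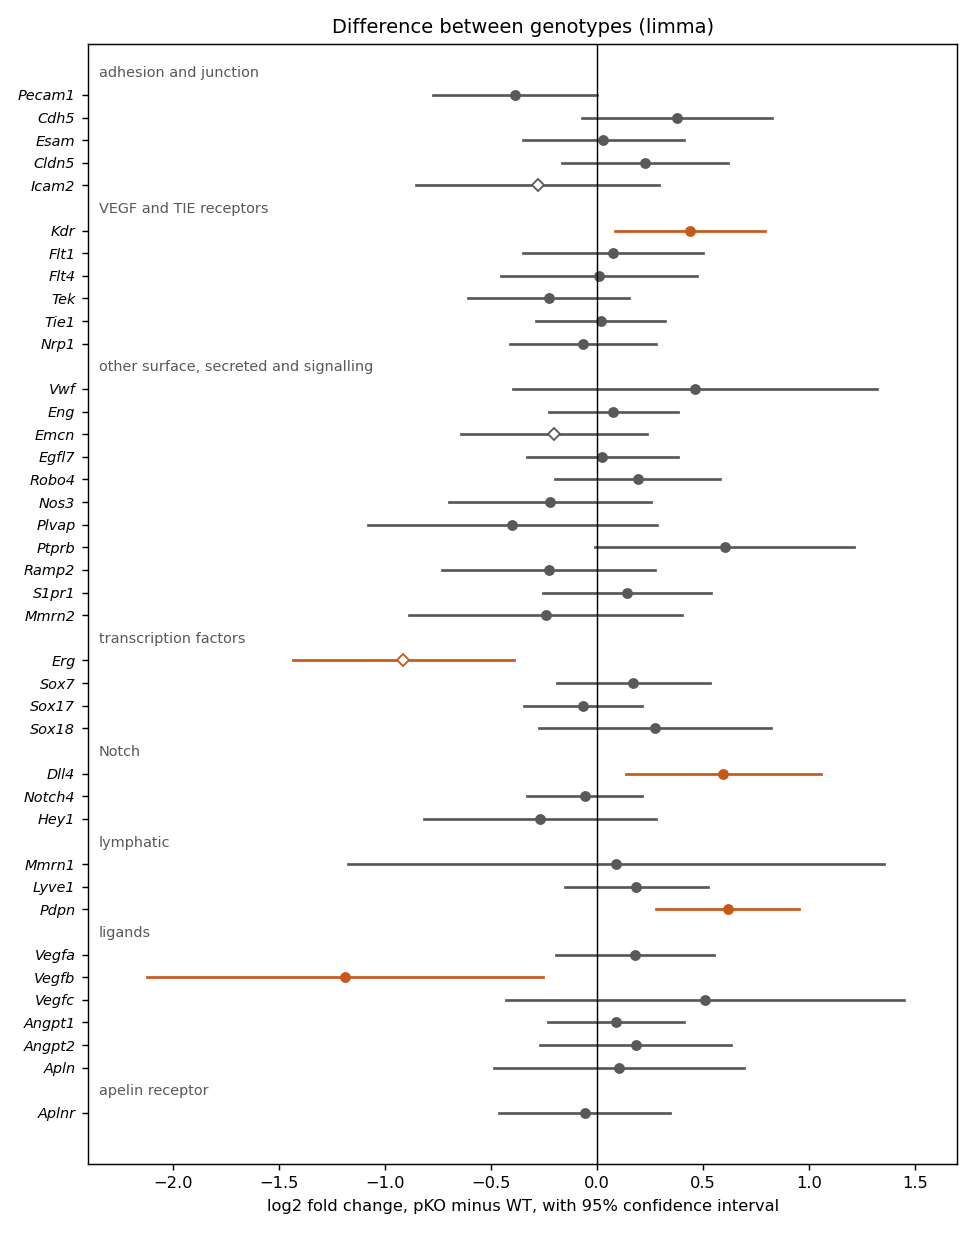
Log2 fold change, pKO minus WT, of the 39 endothelial and angiogenesis genes on the log2(value + 1) scale with 95% confidence intervals from limma (6 WT and 5 pKO mice), grouped by role. Orange marks an unadjusted p of at most 0.05 and open diamonds a mean under 50 in both genotypes. Pdpn, Dll4 and Kdr lie to the right of 0, Vegfb and Erg to the left, and the other 34 intervals include 0.

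Genes for the junctions between endothelial cells did not move together. Pecam1 encodes the adhesion molecule CD31, the usual stain for endothelium. It had 1073 normalized tags in the lowest WT mouse, a median of 1298 and 1782 in the highest, and pKO mice had 727, 1182, 995, 1362 and 901 (replicates 1 to 5). Replicates 1, 3 and 5 of the pKO mice were below every WT mouse, and the other two lay within the WT range. The log2 fold change was -0.39 (95% confidence interval -0.77 to 0.0013) with p = 0.051 in limma and p = 0.076 in the exact permutation test, so Pecam1 did not pass. Cdh5 encodes VE-cadherin, which holds endothelial cells together. Its values were 1116, 1414 and 1643 in the lowest, median and highest WT mouse and 2725, 1439, 1937, 1082 and 2201 in the pKO mice. Here 3 pKO mice, again replicates 1, 3 and 5, were above every WT mouse and replicate 4 was below them all (log2 fold change 0.38, 95% confidence interval -0.069 to 0.83, p = 0.091 in limma, exact permutation p = 0.14).

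Among the pKO mice, those with low Pecam1 were those with high Cdh5, whereas WT replicate 1 was the highest WT mouse in both genes. The ratio of Cdh5 to Pecam1, a comparison chosen after the values were seen and given with no test, was 0.745 to 1.40 in WT mice and 3.75, 1.22, 1.95, 0.795 and 2.44 in pKO replicates 1 to 5. Both genes are standard endothelial markers, and each alone would have ordered the pKO mice differently. The 2 genes also depended on the processing and on single mice. With all mice, Pecam1 passed the unadjusted threshold with equal library totals (-0.42) and with a pseudocount of 10. Cdh5 passed it in DESeq2 on the recovered tags. Without pKO replicate 4, Cdh5 (log2 fold change 0.56) and Pecam1 (-0.49) both passed the unadjusted threshold in limma, and Pecam1 also passed it without pKO replicate 2 (-0.44), WT replicate 4 (-0.45) or WT replicate 5 (-0.44). Cdh5 is read by 1 tag, whereas 1 of the 5 annotated Pecam1 transcripts ends in another tag. Claudin-5 (Cldn5), which seals tight junctions, had 264 to 434 in WT and 271 to 486 in pKO mice. ESAM (Esam), another junction protein, was at 66.0 to 107 in WT and 73.3 to 117 in pKO mice, and ICAM-2 (Icam2), a ligand for leukocyte integrins, at 32.0 to 66.5 and 21.2 to 50.4. For these 3 genes the WT and pKO ranges overlapped.

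Of the 6 receptors for vessel growth factors, Kdr alone passed the unadjusted threshold. KDR, also known as VEGFR2, is the main signalling receptor for VEGFA. Kdr had 229 normalized tags in the lowest WT mouse, a median of 282 and 392 in the highest, and pKO mice had 362, 314, 373, 414 and 495. All 5 pKO mice were above the WT median, but only replicates 4 and 5 were above the highest WT mouse. The mean was 392 ± 67.9 (SD, n = 5) in pKO mice, 1.35-fold the WT mean of 290.2 ± 59.4 (SD, n = 6). The log2 fold change was 0.44 (standard error 0.16, 95% confidence interval 0.086 to 0.79) with unadjusted p = 0.018 and adjusted p = 0.44 in limma and p = 0.030 in the exact permutation test. Without pKO replicate 5 it was 0.35 and without replicates 3, 4 and 5 together 0.24, and neither passed the unadjusted threshold in limma.

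The other 5 receptor genes did not pass. Flt1 encodes VEGFR1, which binds VEGFA and VEGFB, and had 68.6 to 105 in WT and 64.1 to 126 in pKO mice. Flt4 encodes VEGFR3, the receptor for VEGFC on lymphatic vessels, and had 53.9 to 112 in WT mice and 73.3 to 127 in pKO mice. Their log2 fold changes were 0.076 (95% confidence interval -0.35 to 0.50) and 0.0095 (-0.45 to 0.47), intervals that include a change as large as that of Kdr. Kdr was more abundant than Flt1 in each mouse, by 2.68- to 4.53-fold in WT and 3.77- to 5.83-fold in pKO mice. Nrp1, the VEGF co-receptor and also a receptor for semaphorins outside vessels, was the most abundant receptor, with 3129 to 4784 in WT mice and 2600.2 to 4790.2 in pKO mice. The angiopoietin receptor gene Tek had 931 to 1439.7 and 708 to 1301, and Tie1, which encodes its partner, 729 to 1185 and 799.9 to 1036. Tie1 was among the genes that differed least, at a log2 fold change of 0.017 (95% confidence interval -0.29 to 0.32).

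Dll4 was higher in pKO mice, and the other Notch genes did not pass. Dll4 encodes the endothelial Notch ligand, and its WT values were 280.3, 414 and 616 (lowest, median and highest) against 729.7, 378, 660.4, 686 and 789 in pKO mice. Each pKO mouse but replicate 2 was above every WT mouse, and replicate 2 was below the WT median. The means were 427 ± 108 (SD, n = 6) and 649 ± 159 (SD, n = 5), a 1.52-fold difference. Limma gave a log2 fold change of 0.60 (standard error 0.21, 95% confidence interval 0.14 to 1.06), unadjusted p = 0.015 and adjusted p = 0.43, and the exact permutation test p = 0.035. Without pKO replicates 3, 4 and 5 the log2 fold change was 0.34 and did not pass.

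Notch4, the endothelial Notch receptor, varied little, with 351 to 482 in WT and 414, 442, 339, 390.1 and 442 in pKO mice (log2 fold change -0.058, 95% confidence interval -0.33 to 0.21). Hey1, a transcription factor gene that Notch switches on, had 41.8 to 79.5 in WT and 27.5 to 71.6 in pKO mice (log2 fold change -0.27, 95% confidence interval -0.81 to 0.28). Among pKO mice, replicate 5 was highest in both Dll4 and Hey1, whereas replicate 1, second in Dll4, had the lowest Hey1 value of the 11 mice. The ratio of Dll4 to Notch4, chosen after the values were seen and not tested, was 0.639 to 1.36 in WT mice and 1.76, 0.855, 1.95, 1.76 and 1.79 in pKO mice. Again only replicate 2 was within the WT range.

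**Figure D2:**
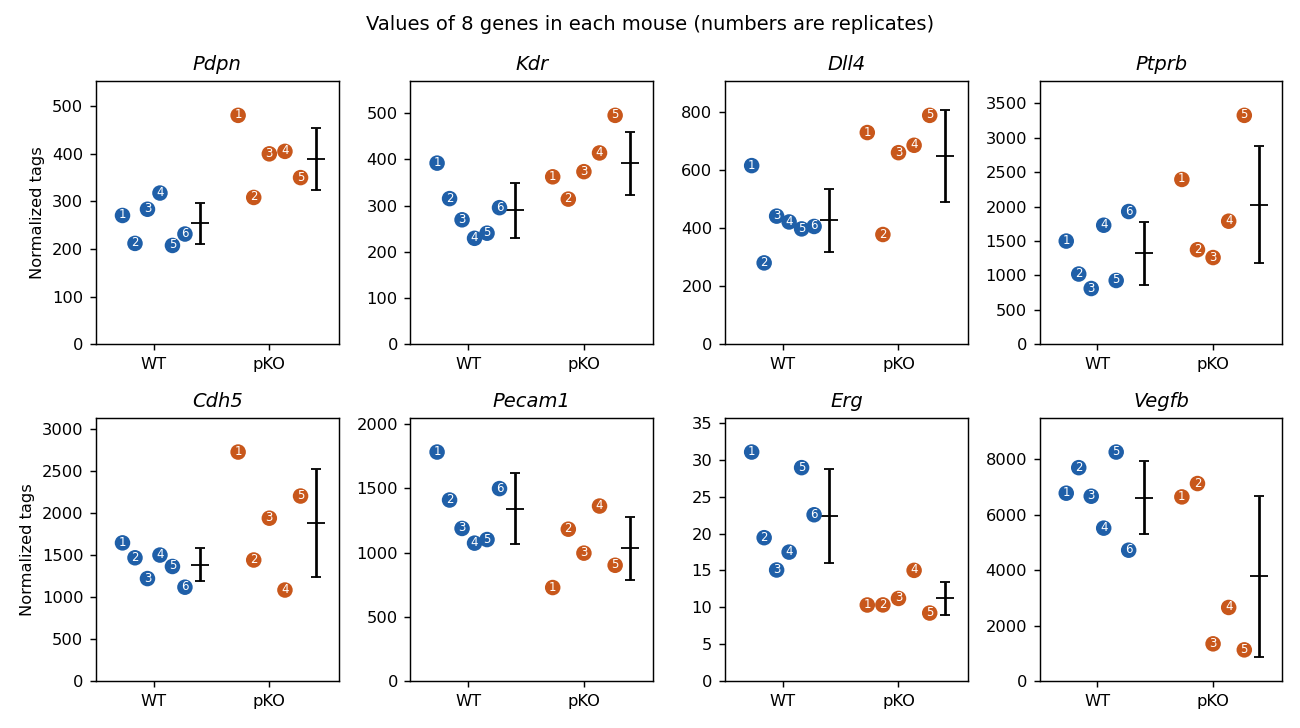
Normalized tags of 8 genes in each of the 6 WT (blue) and 5 pKO (orange) mice, with the replicate number in each point and the mean and SD beside it, on linear axes that start at 0. Pdpn and Dll4 were above the highest WT mouse in 4 of 5 pKO mice, Erg was below the lowest WT mouse in 5 of 5, and Vegfb separated pKO replicates 3, 4 and 5 from the other 8 mice.

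Among the lymphatic genes, Pdpn was higher and the more restricted markers did not pass. Pdpn encodes podoplanin, a surface glycoprotein of lymphatic endothelium that mesothelial and stromal cells also carry. Its WT values were 207, 251 and 318, and pKO mice had 481, 308, 399.9, 405 and 350.0. All but pKO replicate 2 were above the highest WT mouse. The means of 254 ± 43.9 (SD, n = 6) and 389 ± 64.9 (SD, n = 5) differed 1.53-fold. The log2 fold change was 0.62 (standard error 0.16, 95% confidence interval 0.28 to 0.95), with unadjusted p = 0.0015 and adjusted p = 0.28 in limma and p = 0.0065 in the exact permutation test. Pdpn passed the unadjusted threshold in all 23 alternative fits, of which 1 repeats another, and its log2 fold change without pKO replicates 3, 4 and 5 was also 0.62. DESeq2 gave an adjusted p of 0.040.

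Lyve1 encodes a hyaluronan receptor of lymphatic vessels and of some macrophages, and had 390.1 to 624 in WT and 477, 569.6, 648, 755 and 689 in pKO mice. Replicates 3, 4 and 5 were above every WT mouse, but the difference did not pass (log2 fold change 0.19, 95% confidence interval -0.15 to 0.52). Mmrn1, a secreted protein gene of lymphatic endothelium and platelets, was 32.8 to 75.7 in 5 WT mice and 224 in WT replicate 6, and 20.6 to 66.1 in 4 pKO mice and 256 in pKO replicate 5. A single mouse of each genotype was thus far above its group, and the interval of the log2 fold change, -1.17 to 1.35, was the widest of the 39 genes. Flt4 and Vegfc, the receptor and ligand of lymphatic growth, did not pass either.

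Some mesothelial markers were also higher in pKO mice. The mesothelium is the cell layer that covers the fat pad, and Krt19 (log2 fold change 0.73, unadjusted p = 0.00059 in limma, exact permutation p = 0.0065) and Msln (0.57, p = 0.045 and exact p = 0.065) passed as higher, 2 of the 5 mesothelial markers with a mean of at least 50, of 7 listed. The summed level of the list was 731 to 1107 in WT and 847 to 1819 in pKO mice, and none of its markers was at 0 throughout. Msln was 98.1 to 151 in WT mice and 324, 183, 169, 153 and 90.1 in pKO mice. Replicate 1 was thus highest of the pKO mice in both Pdpn and Msln, whereas replicate 5, with Pdpn above every WT mouse, had less Msln than any WT mouse. Krt19 was 270 to 465 in WT mice and 613, 521, 694, 678 and 542 in pKO mice. For Krt19 every pKO mouse, replicate 5 included, was thus above the highest WT mouse. Upk3b (76.7), Lrrn4 (55.3) and Wt1 (24.6) of pKO replicate 5 were, like its Msln, below every WT mouse. Krt8 (39.9) and Krt18 (18.4) of this mouse lay within the WT range. Wt1 and Krt18 were under the minimum mean. The part of these cells in the Pdpn difference was not tested. Of the fibroblast and progenitor markers Dpp4 was higher (log2 fold change 0.53, unadjusted p = 0.0068 in limma, exact permutation p = 0.0087), 1 of 7, and their summed level was 36457 to 43563 in WT and 35271 to 48468 in pKO mice.

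Vegfb was lower in pKO mice as a group, but in 3 of the 5 only. VEGFB binds FLT1 and NRP1, has little angiogenic activity of its own and is made in quantity by tissues rich in mitochondria. In WT mice it had the highest mean of the 39 genes, with 4721 in the lowest WT mouse, a median of 6726 and 8267 in the highest. The pKO mice had 6647, 7129, 1339, 2653 and 1122. Replicates 1 and 2 were thus close to the WT median, and replicates 3, 4 and 5 were below all other mice and had less Vegfb than Nrp1. The mean was 6611 ± 1322 (SD, n = 6) for WT and 3778 ± 2904 (SD, n = 5) for pKO mice, and limma gave a log2 fold change of -1.19 (standard error 0.43, 95% confidence interval -2.12 to -0.25), unadjusted p = 0.017 and adjusted p = 0.43. The exact permutation p was 0.050.

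The 3 mice low in Vegfb were the 3 with the highest coefficients on the first principal component. Without them the log2 fold change of Vegfb was 0.084, of the opposite sign. Without replicate 3 alone it was -0.91 and without replicate 5 alone -0.85, and neither passed the unadjusted threshold, nor did Vegfb in edgeR (-0.82) or DESeq2 (-0.81) on the recovered tags. Akt1, a kinase gene that acts after VEGF receptors and the insulin receptor, had the same split, with 1451 to 2291 in WT mice and 1628, 1902, 465, 947 and 397 in pKO mice (log2 fold change -1.06, unadjusted p = 0.011 in limma, exact permutation p = 0.028). Without these 3 mice the log2 fold change of Akt1 was -0.069 (95% confidence interval -0.50 to 0.37). Akt1 came from the list of pathway partners and was not among the genes most like Vegfb. Over the 11 mice these were Vdac1, Ctps2, Rap1b, Actg1 and Inf2. Their log2 values correlated with those of Vegfb at 0.95 to 0.98, against 0.93 for Akt1. The cause of the split was not tested.

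No other ligand was below all other mice in these 3. Vegfa, the principal angiogenic factor, had 249, 261 and 345 in the lowest, median and highest WT mouse and 273, 228, 321, 424 and 379.6 in pKO mice (log2 fold change 0.18, 95% confidence interval -0.19 to 0.55). Vegfb was 13.7 to 30.9 times as abundant as Vegfa in WT mice and 24.4, 31.3, 4.18, 6.26 and 2.95 times in pKO mice, a ratio chosen after the values were seen. Vegfc, the lymphatic ligand, was spread over 35.7 to 197 in WT and 68.8 to 195 in pKO mice, so the interval of its log2 fold change ran from -0.43 to 1.45. Angpt1, which encodes the stabilising ligand of TEK, was at 118 to 155 in WT and 109.9 to 172 in pKO mice. Angpt2, whose product can oppose it, was 64.4 to 80.1 in WT mice, and pKO mice had 63.5, 52.7, 91.6, 117 and 112. The values of Angpt2 left the WT range on both sides, with replicates 3, 4 and 5 above and 1 and 2 below, and its mean difference did not pass (log2 fold change 0.18, 95% confidence interval -0.27 to 0.63).

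Apelin (Apln), a peptide made by sprouting endothelium and by adipocytes, had 101 to 174 in WT and 249, 174, 161, 112 and 74.7 in pKO mice. Replicate 1 was above and replicate 5 below the WT range. Its receptor gene Aplnr had 276 to 469 in WT mice and 252 to 448 in pKO mice. Their log2 fold changes were 0.10 (95% confidence interval -0.49 to 0.69) and -0.059 (-0.46 to 0.34). Without pKO replicates 3, 4 and 5, Apln passed the unadjusted threshold at 0.65, as a comparison of 2 pKO mice with 6 WT mice.

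Erg was the one gene whose genotypes did not overlap, at a level under the minimum mean. ERG is an ETS transcription factor that maintains endothelial identity and is known to act on the Cdh5 promoter. WT mice had 15.05, 20.99 and 31.1 (lowest, median and highest) and pKO mice 10.3, 10.3, 11.2, 15.00 and 9.21, so that the highest pKO value lay just under the lowest WT value. These values rest on 9 to 34 tags per library. The WT mean of 22.4 ± 6.40 (SD, n = 6) stood against a pKO mean of 11.2 ± 2.24 (SD, n = 5). Limma gave a log2 fold change of -0.91 (standard error 0.24, 95% confidence interval -1.43 to -0.39) with unadjusted p = 0.0021 and adjusted p = 0.30, and p was 0.0043 in the exact permutation test. It did not count as called because of the minimum, and 4.6% of the 5547 genes under it were lower in pKO mice at an unadjusted p of at most 0.05. Ranges were apart in 1.43% of the genes with the minimum mean, and the share among genes under it was not counted. Annotated Erg transcripts lead to 4 tags, including a shortened copy of another at the same site, and which of them were counted is not known.

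The SOX transcription factors that share the control of endothelial and arterial identity did not pass. Sox17 had 350.4 to 502 in WT and 339 to 449.7 in pKO mice (log2 fold change -0.066, 95% confidence interval -0.34 to 0.21) and was among the steadiest of the genes. Sox7 had 442 to 747 and 507 to 809.5. Sox18, which also acts in lymphatic development, had 114 to 246 in WT and 173, 115, 231, 228 and 336 in pKO mice. The highest Sox18 value was that of pKO replicate 5.

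The WT and pKO ranges of the other endothelial surface and secreted products overlapped. Ptprb encodes VE-PTP, a phosphatase that restrains TEK and acts on VE-cadherin. Its values were 809, 1259.6 and 1929 in the lowest, median and highest WT mouse and 2395, 1374, 1259.7, 1788 and 3327 in pKO mice, with replicates 1 and 5 above the WT range. It was just short of the threshold (log2 fold change 0.60, 95% confidence interval -0.0078 to 1.21, p = 0.053 in limma, exact permutation p = 0.10) and passed it in 8 of 23 alternative fits. These include the unblocked fit of replicates 1 to 5, which is the same fit as that without WT replicate 6. Without any one of WT replicates 4 and 6 and pKO replicates 2 and 3 Ptprb passed, with log2 fold changes of 0.70, 0.73, 0.72 and 0.75.

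Mmrn2, an extracellular matrix protein gene of endothelium, spread 4.45-fold among pKO mice, at 503, 941, 1220.0, 1578 and 2241, against 1164 to 1859.9 in WT mice. Replicates 1 and 2 were below the WT range and replicate 5 above it, and without replicates 3, 4 and 5 the gene passed the unadjusted threshold as lower in pKO mice (log2 fold change -0.99, against -0.24 with all mice, which did not pass). Plvap, which encodes the diaphragm protein of capillary fenestrae and caveolae, spread 4.01-fold, with 138, 60.7, 71.2, 126 and 244 in pKO and 113 to 208 in WT mice. Without pKO replicate 5 it passed as lower in pKO mice (log2 fold change -0.67), and with it the value was -0.40 and did not pass. Vwf, the von Willebrand factor gene, had 36.9 to 139 in WT mice and 118, 48.1, 112, 267 and 103 in pKO mice, with replicate 4 high. The spread of Vwf among pKO mice was 5.56-fold. For comparison, it was 1.56-fold for Pdpn, 1.58-fold for Kdr, 2.09-fold for Dll4, 6.36-fold for Vegfb and 12.4-fold for Mmrn1.

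The nitric oxide synthase gene Nos3 had 243 to 376 in WT and 168, 416, 204, 227 and 306 in pKO mice. Replicates 1, 3 and 4 were below and replicate 2 above the WT range, and the log2 fold change was -0.22 (95% confidence interval -0.70 to 0.26). Ramp2, whose product makes the adrenomedullin receptor together with CALCRL, had 272 to 491 in WT mice and 439, 512, 260.5, 259 and 205 in pKO mice, with the same 3 mice low as for Vegfb. Robo4, a guidance receptor that steadies vessels, had the opposite split, with 343 to 486 in WT mice and 404, 299, 524, 544 and 616 in pKO mice. Neither difference passed (log2 fold changes -0.23 and 0.19). Without pKO replicate 2, Robo4 passed the unadjusted threshold at 0.35.

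Eng, the TGF-beta co-receptor endoglin, had 309 to 403 in WT mice and 327 to 364 in 4 pKO mice, with 526 in replicate 5. Egfl7, a secreted factor of vessels, was abundant, at 1788 to 2525 in WT and 1599 to 3205 in pKO mice, where replicate 5 was above and replicate 2 below the WT range. S1pr1, the receptor for sphingosine 1-phosphate that tightens vessel walls, had 352 to 673 and 406 to 685. Emcn, the sialomucin endomucin of capillaries and veins, was low in both genotypes, at 35.7 to 61.4 and 29.5 to 49.4. The log2 fold changes of these 4 genes lay between -0.20 and 0.14.

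**Figure D3:**
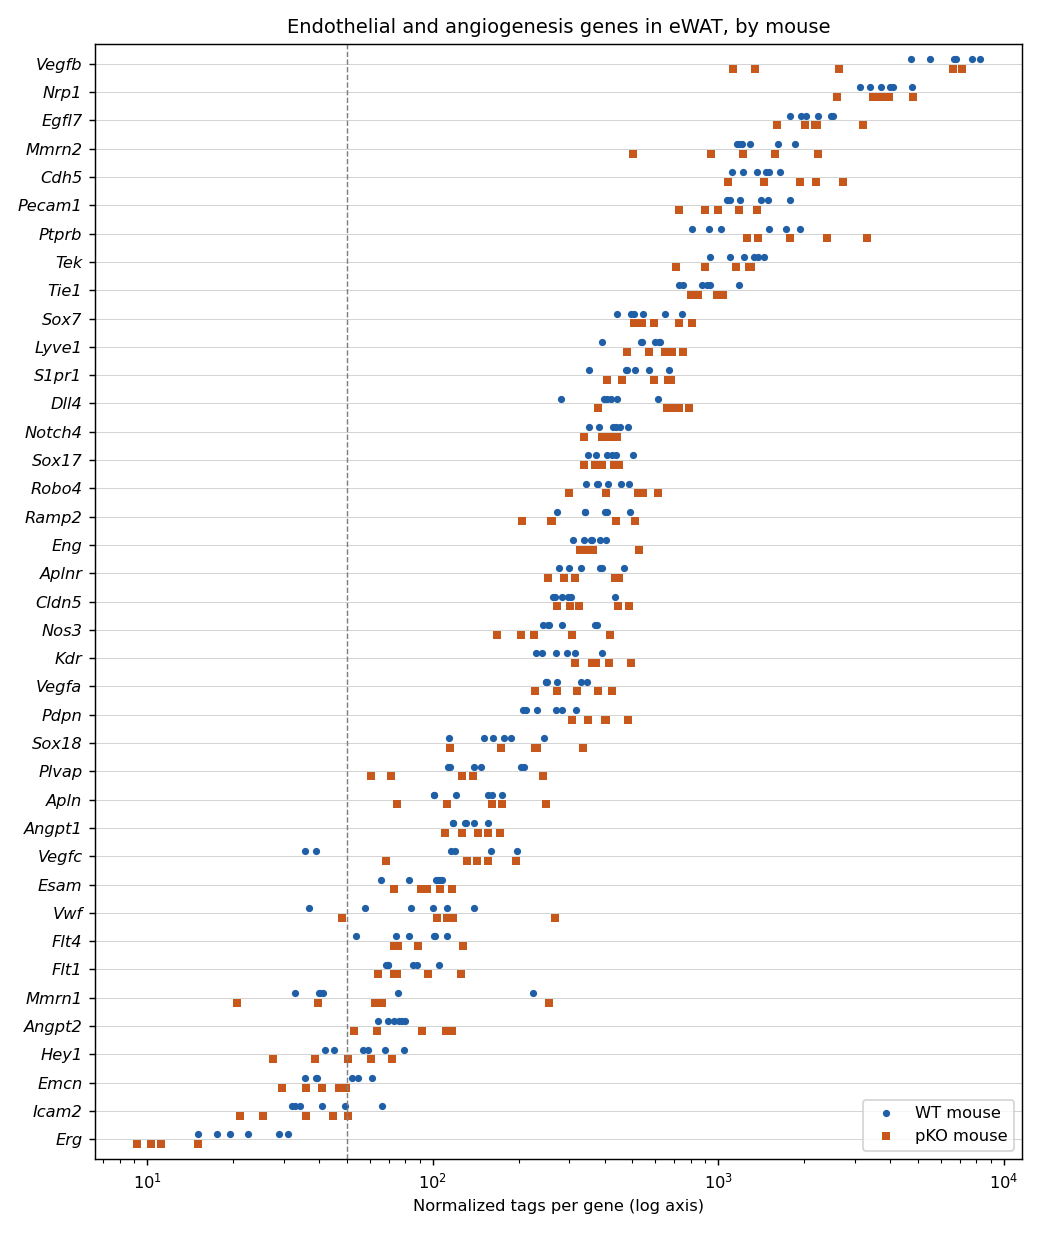
Normalized tags of the 39 genes in each mouse on a log axis, WT as blue circles and pKO as orange squares, ordered by the WT mean. The dashed line marks the minimum mean of 50. Levels ran from 9.21 for Erg to 8267 for Vegfb, and the 2 genotypes are apart for Erg only.

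High and low values were not spread evenly over the mice. Within the pKO group, replicate 5 was highest in 15 of the 36 genes (41.7%, against 20.7% of all genes) and replicate 2 lowest in 16 (44.4%, against 18.9%). Among WT mice, replicate 6 was highest in 13 (36.1%, against 21.4% of all genes) and replicate 1 in 11 (30.6%, against 13.0%), and replicate 3 was lowest in 10 (27.8%, against 13.9%). Endothelial genes share cells and libraries, so these counts are a description of mice and not of independent genes. As examples chosen after the values were seen, pKO replicates 5 and 2 differed for Kdr (495 and 314), Dll4 (789 and 378), Ptprb (3327 and 1374), Plvap (244 and 60.7) and Egfl7 (3205 and 1599).

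**Figure D4:**
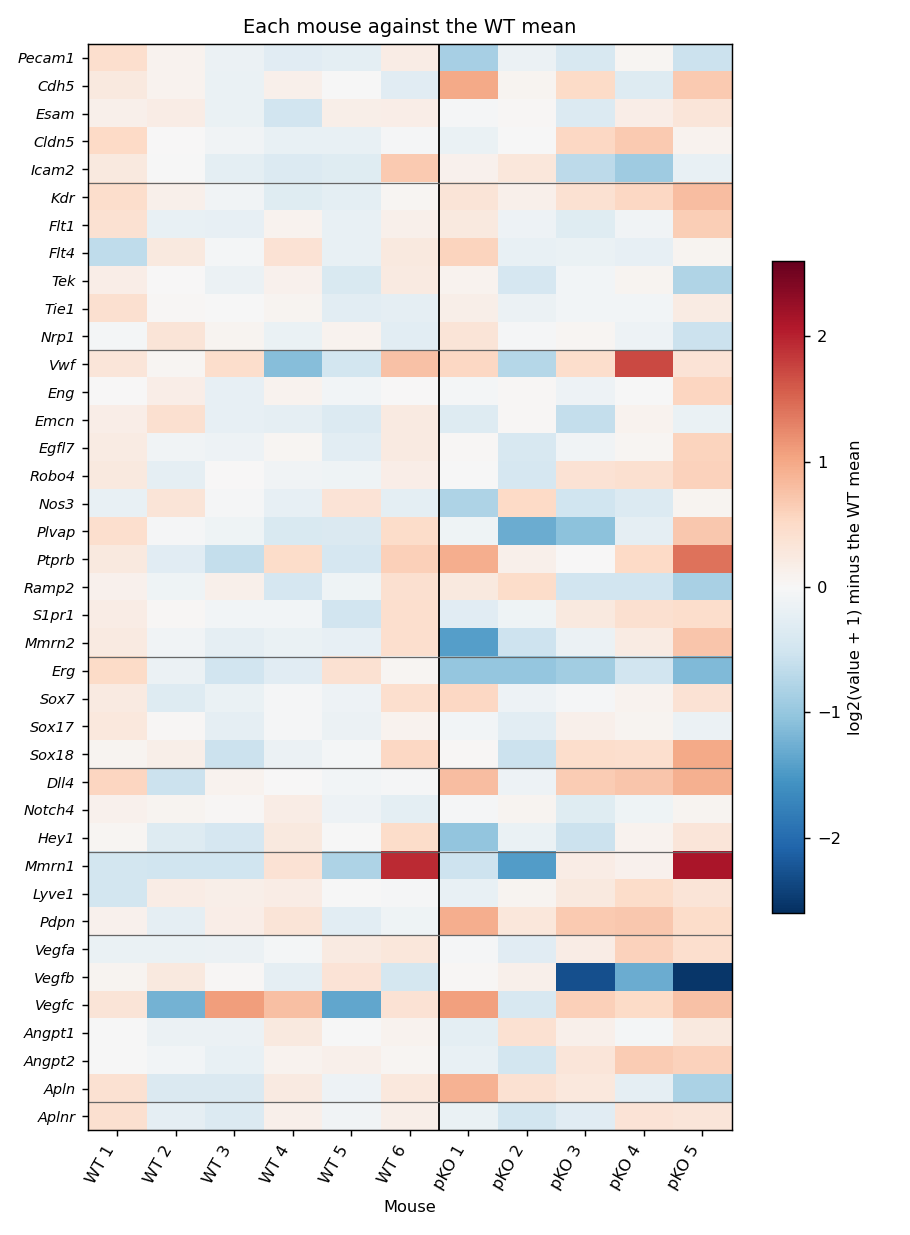
Difference of each mouse from the WT mean, on the log2(value + 1) scale, for the 39 genes in rows grouped by role and the 11 mice in columns. Red is higher and blue lower. The pKO replicate 5 column is red for most genes, Vegfb is dark blue in pKO replicates 3, 4 and 5, and Erg is blue in all pKO mice. Among the pKO mice, replicate 5 was highest in 15 of the 36 genes with the minimum mean.

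Lists of related genes were read against the same 10.6% of all genes. Of 53 other endothelial markers 51 were found and 45 had the minimum mean. Ly6c1, a capillary surface protein gene, was lower in pKO mice, and Meox2, Thbd and Edn1 were higher, 4 of 45 or 8.89%. Meox2, a homeobox gene of vascular cells, had 387 to 809.9 in WT and 1408, 389.7, 1054, 904 and 1131 in pKO mice, 1.92-fold higher (log2 fold change 0.86, unadjusted p = 0.0095 in limma, exact permutation p = 0.032). Only pKO replicate 2 was within the WT range, as for Dll4. Edn1, which encodes the vasoconstrictor endothelin-1, had 277 to 353 in WT and 477, 370.2, 338, 377 and 555 in pKO mice (log2 fold change 0.41, unadjusted p = 0.015 in limma, exact permutation p = 0.0087). Thbd, the gene of the anticoagulant receptor thrombomodulin, had a log2 fold change of 0.44 (p = 0.046, exact permutation p = 0.084), and Ly6c1 one of -0.32 (p = 0.037, exact permutation p = 0.043). The median over the 45 genes was 0.029. Of the mural cell markers, which label the pericytes and smooth muscle around vessels, 0 of 11 passed in either direction in limma, while Cnn1, under the minimum mean, had an unadjusted p of 0.031 (exact permutation p = 0.054).

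Among other angiogenic and angiostatic factors, 3 of 19 passed (15.8%). Fgf1, an adipose growth factor, had 689 to 1235 in WT and 490.2, 979, 658, 649 and 436 in pKO mice (log2 fold change -0.58, unadjusted p = 0.014 in limma, exact permutation p = 0.035), and Cxcl12, a chemokine gene, was also lower (-0.36, p = 0.032 and exact p = 0.028). Timp3, whose product blocks VEGF binding to KDR, was higher (0.36, p = 0.045 and exact permutation p = 0.063). Of 24 partners in the VEGF, TIE, apelin, Notch and sphingosine 1-phosphate pathways 3 passed (12.5%). Akt1 and S1pr2 (log2 fold change -0.37, p = 0.040 and exact permutation p = 0.026) were lower and the Notch coactivator gene Maml1 higher, with 197 to 348 in WT and 322 to 463 in pKO mice (0.53, p = 0.0073 and exact p = 0.013). Of 19 hypoxia response genes 1 passed (5.26%). Vhl, whose product marks hypoxia-inducible factors for breakdown, was lower (-0.46, p = 0.025 and exact permutation p = 0.037) and none was higher. No gene of these lists had an adjusted p of at most 0.1 in limma. Without pKO replicates 3, 4 and 5, which leaves 2 pKO mice, 2 of the 11 genes called in these lists still passed, Edn1 (0.42) and Ly6c1 (-0.46), and all 11 kept their sign.

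Markers of other cells were compared because vessels are a small part of the tissue. Of 8 adipocyte markers Pnpla2, a lipase gene, was higher (log2 fold change 0.55, unadjusted p = 0.0048 in limma, exact permutation p = 0.0087). The log2 fold change was above 0 for 6 of the 8 and below 0 for 2, Lep (-0.49) and Lipe (-0.22), which did not pass. The summed level was 687415 to 1096074 in WT and 737121 to 1109553 in pKO mice. Most of it was Fabp4, with 471444 to 835899 in WT and 503057 to 938405 in pKO mice. Of 7 macrophage markers with the minimum mean Itgam was lower (-0.72, p = 0.0057 and exact permutation p = 0.0043). The log2 fold change was below 0 for 6 of the 7, with Emr1 at -0.013, and Cd163 was at 0.23. The sums of the macrophage markers were 3635 to 5127 in WT and 3218 to 4403 in pKO mice. Red cell genes, a measure of blood left in the tissue, were higher for 2 of the 3 found. These were the haemoglobin genes Hba-a1 (0.78, p = 0.039 and exact permutation p = 0.11) and Hba-a2 (0.75, p = 0.045 and exact p = 0.091). Alas2, which is not a haemoglobin gene, did not pass (0.49, p = 0.13 in limma, exact permutation p = 0.19). The sums over the 3 genes were 375 to 961 in WT and 648 to 1649 in pKO mice. Of 9 epididymis and testis markers 1 was found, at 0 to 43.8. Without pKO replicates 3, 4 and 5, which leaves 2 pKO mice, 4 of the 7 called markers of other cells still passed. These were Itgam (-0.52), Dpp4 (0.68), Krt19 (0.63) and Msln (1.09). Pnpla2 (0.25), Hba-a1 (0.39) and Hba-a2 (0.49) did not, and all 7 kept their sign. The part of these cells in the endothelial differences was not tested.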

How the data were processed

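Gene expression was measured by SAGE on the SOLiD platform in eWAT of 6 WT and 5 pKO mice. The authors mapped tags with a modified SOLiD SAGE analysis program, and the submitters' processing notes list mm10 and edgeR 3.2.3. The annotation is not given in the sources used here. The deposited values are a signal per gene, tag counts divided by a library size factor. In each library 100% of values were whole multiples, within 0.05 of a tag, of the value of 1 tag, and tag counts were recovered from that step for count models.

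Differences in log2(value + 1), pKO minus WT, were tested with limma 3.58.1 (trend) over all 15453 genes with Benjamini-Hochberg adjustment. On this scale the change of a gene with few tags is understated. A gene counted as called when its mean reached 50 in WT or pKO mice and its p was at most 0.05 unadjusted or 0.1 adjusted. Every p named as limma is unadjusted unless stated. Two-sided exact permutation tests used all 462 splits of the mice, with 0.0022 as the smallest possible p. P-values set the difference between genotypes against the spread between these mice, which limma moderates with a trend over all genes. The number of tags limits the precision of low genes, and SAGE tags carry no molecular identifiers.

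Every listed gene is described. Genes of other lists are named where they passed the unadjusted rule, up to 6 per list. The genes and lists were chosen with earlier results of these data known. Alternatives used edgeR 4.0.16, DESeq2 1.42.0, voom, TMM or equal totals, other pseudocounts (0.5 and 10), other filters, a replicate block and each mouse left out. Replicates 1 to 5 were also fitted without the block. That fit is the same as the one without WT replicate 6, and both are counted among the alternatives. Leaving out pKO replicates 3, 4 and 5 together was chosen after seeing the data. The scripts were tested on simulated data. Tag positions came from GENCODE M21 (GRCm38, the mm10 build) and need not be those the authors counted.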

Additional observations from a re-analysis of the deposited data

Results flagged for a closer look

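In 4 of 78 groups of mice (39 genes in 2 genotypes) a single mouse lay far from the others, beyond Dixon's 95% critical value, and chance gives about 1 in 20, or 3.9 of 78. Cldn5 had 434 normalized tags in WT replicate 1 against 264 to 305 in the other WT mice. Eng had 526 in pKO replicate 5 against 327 to 364 in the other pKO mice. Mmrn1 had 224 in WT replicate 6 against 32.8 to 75.7, and 256 in pKO replicate 5 against 20.6 to 66.1. None of the 3 genes passed the unadjusted rule between genotypes.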

How the results depend on the processing

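Over 24 settings beside the reported one, the number of endothelial genes past the unadjusted rule was 3 to 7 when 1 mouse was left out (7 without pKO replicate 2, which added Pecam1, Ptprb and Robo4) and 4 or 5 otherwise. The share of all genes called moved too, from 7.9% to 14.9% when 1 mouse was left out (14.9% without pKO replicate 2), against 10.6%. Past the adjusted threshold there was 0, or 1 (Pdpn) with DESeq2, which called 121 of all genes against 5 in limma. Without pKO replicate 2 limma called 91 of all genes and no endothelial gene. The count over the other vascular lists was 11, 7 with the replicate block, and 7 to 13 when 1 mouse was left out (7 without WT replicate 1 and without pKO replicate 3). With equal library totals the calls over all genes were 726 lower and 330 higher, against 572 and 480, and the endothelial genes 2 lower and 3 higher. The replicate numbers shared by the labels did not pair the mice. Correlations of same-numbered mice were -0.092 to 0.14, and 1 of 5 WT mice correlated best with its own number. With the replicate block, Kdr lost its call (log2 fold change 0.45), Ptprb gained one (0.73) and 4 genes were called in all.

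Signs of genes that had not passed, and of Vegfb, changed under some settings. With equal totals Esam was -0.0056, Flt4 -0.025, Tie1 -0.018 and Egfl7 -0.0086 (log2 fold changes), and Tie1 was -0.031 in replicates 1 to 5 with and without the replicate block. Leaving out pKO replicates 3, 4 and 5 together gave Esam -0.0049, Cldn5 -0.089, Icam2 0.20, Nrp1 0.15, Vwf -0.10, Eng -0.011, Egfl7 -0.20, Robo4 -0.22, Ramp2 0.36, S1pr1 -0.21, Sox18 -0.26, Notch4 0.026, Mmrn1 -0.99, Lyve1 -0.064, Vegfa -0.17, Vegfb 0.084 and Angpt2 -0.34. The genes called were then Mmrn2 (lower), Apln, Cdh5 and Pdpn (higher), 4 of 36 against 17.4% of all genes. With 1 mouse left out, ranges that crossed 0 were -0.070 to 0.12 for Esam, -0.067 to 0.17 for Flt1, -0.13 to 0.087 for Flt4, -0.040 to 0.10 for Tie1, -0.17 to 0.055 for Nrp1, -0.042 to 0.13 for Eng, -0.11 to 0.14 for Egfl7, -0.48 to 0.057 for Mmrn2, -0.11 to 0.0049 for Notch4, -0.42 to 0.48 for Mmrn1, -0.097 to 0.33 for Apln and -0.16 to 0.047 for Aplnr. The cause of these changes was not tested.

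Of 465 results under other settings, 427 kept their direction and side of the threshold, and so did 386 of 429 with 1 mouse left out. With 5 pKO mice and intervals of about 0.40 either way, changes smaller than this were not detectable for most genes, and 9 to 34 tags limit Erg.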
